A study of Mus musculus with 12 samples.

Results

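The genes described here are 8 genes that are used as markers of mesothelial cells, namely Msln, Upk3b, Lrrn4, Gpm6a, Wt1, Krt19, Krt8 and Krt18, out of 55281 genes in the table of estimated counts of the series. Their rows were found by symbol, and all 8 had counts in every library and passed the filter on low counts. The 8 genes were chosen with earlier results of these data known. The tissue is gonadal white adipose tissue (GWAT), the visceral fat pad beside the testis and epididymis, of male mice. All mice carried the floxed allele of Hoip (Rnf31) on both chromosomes (Hoip fl/fl). HoipA-KO mice also carried AdipoQ.Cre, in which the adiponectin promoter drives the recombinase in mature adipocytes, and WT mice were littermates without the transgene. The deletion is thus directed at adipocytes, and Hoip in mesothelial cells was not examined. Each genotype received a control diet (CD, 14% fat per the labels) or a high-fat diet (HFD, 60% fat) from 6 weeks of age for 16 weeks, and each of the 4 groups has 3 libraries, each made from fat of 3 mice pooled. The recorded age of the mice was 22 to 24 weeks in all groups.

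The mesothelium is the single layer of flat epithelial cells that covers the peritoneal cavity and the organs in it, including visceral fat. Its cells descend from mesoderm, carry both epithelial features such as keratins and the transcription factor WT1, and secrete a lubricating film. Because the genes are read in whole tissue, fewer cells of a type and less RNA per cell cannot be told apart.

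Library totals ran from 30513500 to 60540260 counts, and levels are given as CPM, that is counts relative to the library total with TMM factors over the 12 libraries. Rnf31, the gene targeted in adipocytes, had 12.01 to 22.5 CPM over the 12 libraries and was called on neither diet, so that whole-tissue counts do not check the genotype labels. WT CD replicate 2 carried 15762 CPM over 11 epididymal genes, among them Crisp1, a secreted protein of the epididymis, and HoipA-KO HFD replicate 1 carried 1311 CPM. HoipA-KO HFD replicate 3 (191 CPM) and HoipA-KO CD replicate 3 (112 CPM) followed, and the other 8 libraries had 0.133 to 19.8 CPM. WT CD replicate 3 held 9713 CPM of 10 germ cell genes and 134 CPM of 8 Sertoli cell genes, and the fits of the comparisons leave it out, as the deposited comparisons do. The p-values measure the spread between pools.

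Promoter sequence is shown for 4 members, because Upk3b and Lrrn4 varied together across libraries and Krt8 and Krt18, which are neighbours on chromosome 15, did so as a second pair. The sequences are from RefSeq on GRCm38.p6, run 5′ to 3′ on the strand of the gene and stop before the annotated gene. Capitals mark GGAATG, the core motif of TEAD factors, on either strand (read as CATTCC on the other).
Upk3b, chr5:136038246-136038495, plus strand: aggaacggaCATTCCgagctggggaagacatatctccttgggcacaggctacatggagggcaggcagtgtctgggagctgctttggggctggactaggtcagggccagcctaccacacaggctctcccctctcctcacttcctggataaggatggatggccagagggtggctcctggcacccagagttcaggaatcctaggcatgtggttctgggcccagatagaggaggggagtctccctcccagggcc
Lrrn4, chr2:132880892-132881112, minus strand: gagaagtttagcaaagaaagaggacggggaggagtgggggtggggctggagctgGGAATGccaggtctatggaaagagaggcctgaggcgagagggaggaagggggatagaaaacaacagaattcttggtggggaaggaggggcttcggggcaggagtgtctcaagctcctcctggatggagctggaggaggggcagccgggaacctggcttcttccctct
Krt8, chr15:102004483-102004592, minus strand: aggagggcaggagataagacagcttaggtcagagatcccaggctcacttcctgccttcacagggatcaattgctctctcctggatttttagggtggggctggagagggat
Krt18, chr15:102027966-102028179, plus strand: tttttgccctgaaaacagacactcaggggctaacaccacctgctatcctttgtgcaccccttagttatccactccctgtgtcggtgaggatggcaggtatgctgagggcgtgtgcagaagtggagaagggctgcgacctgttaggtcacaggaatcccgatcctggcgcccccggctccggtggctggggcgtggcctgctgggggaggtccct
The motif occurs 1 time in the Upk3b window and 1 time in the Lrrn4 window and not in those of Krt8 and Krt18, while 14.7% of 32851 promoters of 300 bases hold it on either strand. The result is the same in the 300-base windows of these genes, of which 110 to 250 bases are printed. The other motifs searched on both strands were GGGCGG (the GC box, in 35.7% of promoters), TATAAA (the TATA box, 13.6%), TGANTCA (AP-1, 7.81%) and GCGTGGG (EGR and WT1, 5.04%), and of these only TATAAA was found in the 300-base windows of the 4 genes, with 2 matches for Krt8 in the part that lies within the annotated gene and is not printed. A match is a description of the letters, not of a bound site. No sequence is printed for Msln, Krt19, Wt1 or Gpm6a. Gpm6a, which varied with Upk3b and Lrrn4, has RefSeq starts at chr8:54779434 and chr8:54954728. The 300-base window of the first holds GGAATG 1 time and GGGCGG 1 time. That of the second lacks GGAATG and holds TATAAA 1 time.

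Msln lies at chr17:25748613-25754378 on GRCm38 and encodes mesothelin, a protein anchored to the mesothelial cell surface. It had 17.1, 7.39 and 19.998 CPM in WT CD, 30.3, 38.8 and 10.5 CPM in WT HFD, 22.8, 12.9 and 15.5 CPM in HoipA-KO CD and 12.4, 13.4 and 8.76 CPM in HoipA-KO HFD. The highest values were WT HFD replicates 2 and 1, the third WT HFD library was among the lowest, and both diets had overlapping genotypes. Group means were 14.8 ± 6.61 CPM in WT CD, 26.5 ± 14.5 CPM in WT HFD, 17.1 ± 5.14 CPM in HoipA-KO CD and 11.5 ± 2.45 CPM in HoipA-KO HFD (SD, n = 3).

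Upk3b (chr5:136038496-136046487) encodes uroplakin 3B, a membrane protein of mesothelium. It had 53.4, 19.2 and 55.4 CPM in WT CD, 67.2, 79.4 and 16.9 CPM in WT HFD, 111, 44.6 and 54.03 CPM in HoipA-KO CD and 45.4, 62.02 and 32.1 CPM in HoipA-KO HFD. HoipA-KO CD replicate 1 was the highest library and WT HFD replicate 3 the lowest, with all groups overlapping, and group means were 42.7 ± 20.4 CPM in WT CD, 54.5 ± 33.1 CPM in WT HFD, 69.9 ± 35.96 CPM in HoipA-KO CD and 46.5 ± 15.000 CPM in HoipA-KO HFD (SD, n = 3). Lrrn4 (chr2:132868305-132880891), which encodes a membrane protein with leucine-rich repeats, had 10.3, 3.81 and 10.99 CPM in WT CD, 15.3, 21.8 and 3.77 CPM in WT HFD, 29.8, 14.8 and 13.7 CPM in HoipA-KO CD and 8.37, 18.6 and 6.63 CPM in HoipA-KO HFD. On CD the lowest HoipA-KO library lay above the highest of the 3 WT libraries, as it did for 20.7% of all genes, whereas on HFD the groups overlapped. Its means were 8.35 ± 3.95 CPM in WT CD, 13.6 ± 9.12 CPM in WT HFD, 19.4 ± 9.01 CPM in HoipA-KO CD and 11.2 ± 6.47 CPM in HoipA-KO HFD (SD, n = 3).

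Gpm6a (chr8:54954843-55060871), which encodes a membrane glycoprotein also made by neurons, had 8.82, 6.12 and 18.2 CPM in WT CD, 21.9, 29.8 and 6.24 CPM in WT HFD, 33.1, 14.9 and 10.3 CPM in HoipA-KO CD and 12.5, 15.96 and 6.15 CPM in HoipA-KO HFD. As for Upk3b and Lrrn4, the highest library was HoipA-KO CD replicate 1, and on CD WT replicate 3 lay within the HoipA-KO range while replicates 1 and 2 lay below it. Its means were 11.04 ± 6.32 CPM in WT CD, 19.3 ± 11.99 CPM in WT HFD, 19.4 ± 12.1 CPM in HoipA-KO CD and 11.5 ± 4.97 CPM in HoipA-KO HFD (SD, n = 3). Within WT HFD, Msln, Upk3b, Lrrn4 and Gpm6a each had replicate 2 highest, replicate 1 next and replicate 3 lowest. Summed over these genes and Wt1, the level ran from 42.6 to 139 CPM in WT CD, 43.6 to 181 in WT HFD, 98.6 to 216 in HoipA-KO CD and 66.7 to 129 in HoipA-KO HFD, and the groups overlapped.

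Wt1 (chr2:105126529-105173616) encodes a zinc finger transcription factor of mesothelium and is also expressed in Sertoli cells. It had 10.3, 6.08 and 34.7 CPM in WT CD, 9.76, 11.1 and 6.301 CPM in WT HFD, 19.5, 11.3 and 14.9 CPM in HoipA-KO CD and 15.6, 18.5 and 13.1 CPM in HoipA-KO HFD. WT CD replicate 3, the library with Sertoli and germ cell transcripts, was the highest, and HoipA-KO libraries lay above the WT libraries on HFD. On CD they lay above WT replicates 1 and 2 and below replicate 3. In that replicate the mesothelial genes Muc16 and Aldh1a2 were also the highest of 12 libraries (16.9 and 62.8 CPM), while Msln and Upk3b were not. How much of its Wt1 came from Sertoli cells was not tested. The antisense gene Wt1os reached 2.25 CPM in the same library and 0.147 to 0.819 CPM in the other 11, and the library kit keeps strand. Means of Wt1 were 17.04 ± 15.4 CPM in WT CD, 9.06 ± 2.48 CPM in WT HFD, 15.3 ± 4.097 CPM in HoipA-KO CD and 15.7 ± 2.72 CPM in HoipA-KO HFD (SD, n = 3).

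**Figure D1:**
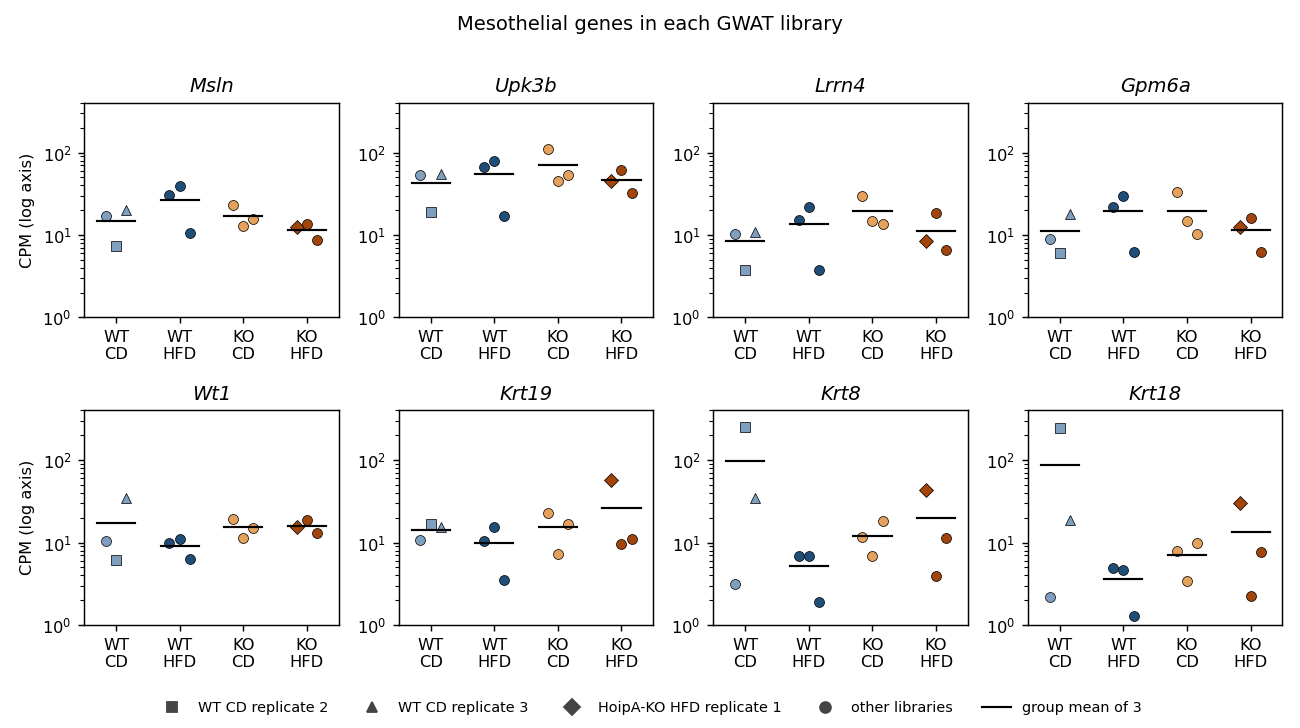
Level of each of the 8 genes (CPM, log axis) in the 12 libraries by group (WT CD, WT HFD, HoipA-KO CD, HoipA-KO HFD), 1 point a library and a bar at the group mean. Krt8 and Krt18 stand out in WT CD replicate 2 at 255 and 243 CPM and Wt1 in WT CD replicate 3 at 34.7 CPM.

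Krt8 (chr15:101996698-102004482) and Krt18 (chr15:102028180-102032027) encode the type II and type I keratins that form the filament pair of simple epithelia, and they lie 23697 bases apart. Krt19 (chr11:100140810-100148665) encodes a further type I keratin of simple epithelia. Krt8 had 3.12, 255 and 34.9 CPM in WT CD, 6.81, 6.803 and 1.88 CPM in WT HFD, 11.6, 6.88 and 18.05 CPM in HoipA-KO CD and 43.7, 3.95 and 11.3 CPM in HoipA-KO HFD. Krt18 had 2.17, 243 and 18.99 CPM in WT CD, 4.95, 4.67 and 1.298 CPM in WT HFD, 7.89, 3.45 and 10.01 CPM in HoipA-KO CD and 29.9, 2.22 and 7.77 CPM in HoipA-KO HFD. WT CD replicate 2 was the highest for both genes, 5.84-fold above the next library for Krt8 and 8.12-fold for Krt18. The next libraries were HoipA-KO HFD replicate 1 and WT CD replicate 3, and the other 9 had 1.88 to 18.05 CPM of Krt8 and 1.298 to 10.01 CPM of Krt18. Krt19 had 10.6, 16.9 and 15.2 CPM in WT CD, 10.3, 15.5 and 3.496 CPM in WT HFD, 22.999, 7.16 and 16.6 CPM in HoipA-KO CD and 57.6, 9.55 and 11.04 CPM in HoipA-KO HFD. It did not follow this order: HoipA-KO HFD replicate 1 was its highest library, and in WT CD replicate 2 it had 0.294 times that level.

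The 3 libraries with most Krt8 were also the 3 with most transcripts of other simple epithelia. Summed over 11 genes such as Epcam, an adhesion molecule of epithelial cells that mesothelium lacks, these had 895 CPM in WT CD replicate 2, 156 in HoipA-KO HFD replicate 1, 71.9 in WT CD replicate 3 and 3.56 to 26.1 in the other 9. Epcam itself had 231, 34.4 and 27.4 CPM in these libraries. The keratin Krt7, also among the 11, had 2.64 of the 3.56 CPM in WT HFD replicate 3, so that the lowest sum was mostly this keratin. Krt8 counts were 34.6 times those of Msln in WT CD replicate 2, 3.52 times in HoipA-KO HFD replicate 1, 1.75 times in WT CD replicate 3 and 0.176 to 1.29 times in the other 9. Msln was lowest of all libraries in WT CD replicate 2. In this library the keratins Krt8 and Krt18 moved with the epididymal and epithelial genes and not with Msln. Their part in the keratin levels was not tested. Counts shared with the near-identical copy Krt8-ps were small, with at most 15.9 counts for the copy, and the antisense gene Gm36026 had at most 34 against 11922 for Krt8.

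**Figure D2:**
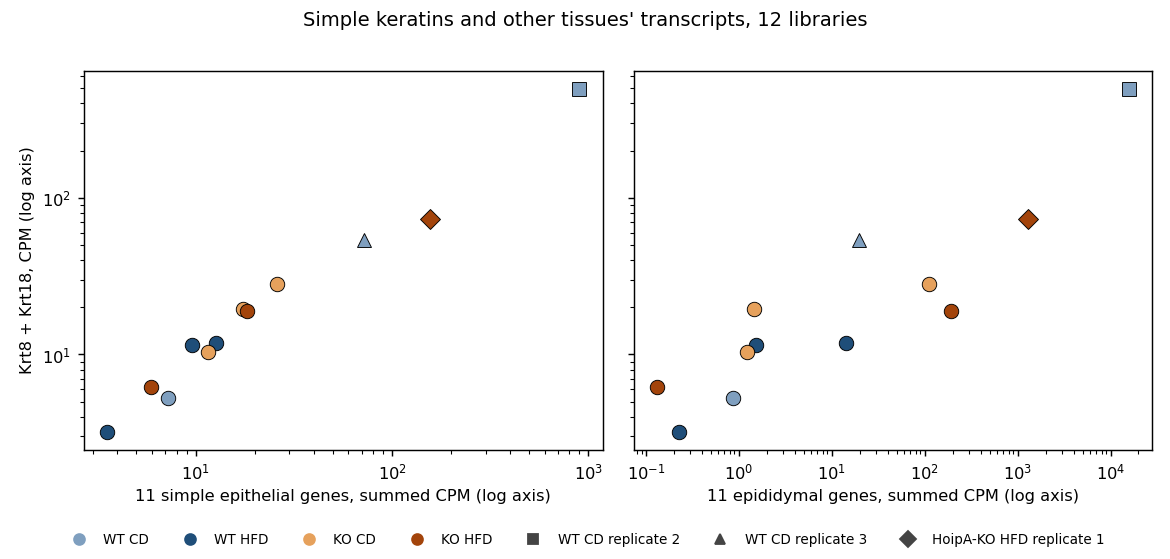
Summed level of Krt8 and Krt18 in each of the 12 libraries against the summed level of 11 other simple epithelial genes (left) and of 11 epididymal genes (right), all in CPM on log axes, 1 point a library. In the left panel WT CD replicate 2, HoipA-KO HFD replicate 1 and WT CD replicate 3 lie furthest right at 895, 156 and 71.9 CPM and are the highest for the keratins.

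Between genes, levels were compared as the median over libraries of CPM per kilobase of annotated exons. Upk3b was the highest at 15.2, followed by Krt19 (7.08), Msln (4.72), Krt8 (4.63), Krt18 (4.42), Gpm6a (4.26), Lrrn4 (3.32) and Wt1 (1.97). The ranges over the 12 libraries overlapped for every pair of neighbours in this order, for example 4.77 to 31.5 for Upk3b and 1.88 to 31.03 for Krt19.

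The comparison of HoipA-KO with WT on CD asks what loss of HOIP in adipocytes does in lean animals. None of the 8 genes was called on CD at an adjusted p under 0.05 (edgeR quasi-likelihood, Benjamini-Hochberg), against 37.7% of all 18427 genes tested. At an unadjusted p under 0.05, 3 of the 8 passed beside 48.4% of all genes. DESeq2's Wald test called 3 of the 8 at an adjusted p under 0.05, beside 44.9% of all genes. These were Krt8 and Krt18, lower in HoipA-KO, and Wt1, higher in HoipA-KO, whose directions each rest on a single WT CD library as given below. Lrrn4 had a log2 fold change of 1.498 (SE 0.76) with an adjusted p of 0.147, and Gpm6a one of 1.41 (SE 0.70) with an adjusted p of 0.136 (edgeR quasi-likelihood, Benjamini-Hochberg). Upk3b (0.98 (SE 0.68)) and Msln (0.51 (SE 0.52)) had smaller estimates. Wt1 had a log2 fold change of 0.93 (SE 0.33), a 95% interval of 0.19 to 1.66 and an adjusted p of 0.0503 by the same test (edgeR quasi-likelihood, Benjamini-Hochberg). For Lrrn4, Wt1 and Gpm6a every HoipA-KO library lay above WT replicates 1 and 2, which held for 27.2% of all genes tested. With WT CD replicate 3 in the fit the log2 fold change of Wt1 was -0.22 (SE 0.55), so that its direction rests on that library, while those of Lrrn4 (1.17 (SE 0.66)) and Gpm6a (0.76 (SE 0.65)) kept their sign. Wt1 passed the threshold when WT CD replicate 1 (1.34), WT HFD replicate 3 (0.84) or HoipA-KO CD replicate 2 (1.08) was left out alone. A fit without WT CD replicate 1 or replicate 2 has 1 WT CD library left, which is assumed to vary like the other groups.

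The keratins had the largest estimates and the widest errors on CD, with log2 fold changes of -3.39 (SE 1.37) for Krt8 and -4.09 (SE 1.47) for Krt18, and adjusted p-values of 0.0767 and 0.0526 (edgeR quasi-likelihood, Benjamini-Hochberg). Without WT CD replicate 2 and HoipA-KO HFD replicate 1 these values were 1.96 and 1.71, of the opposite sign, so that the direction rests on WT CD replicate 2. Leaving out WT CD replicate 1 gave -4.38 and -5.08, both past the threshold, but with replicate 2, the library rich in epididymal transcripts, alone in its group and the spread taken from the other groups. Krt18 also passed without HoipA-KO HFD replicate 1 (-4.25) or replicate 2 (-4.09). Krt19 had a log2 fold change of 0.20 (SE 0.84). Over the 8 genes the median log2 fold change was 0.72 and 6 estimates were above 0, beside a median of -0.06 over all genes tested. The median of the 8 was 0.12 with all 12 libraries, where 5 estimates were above 0, and it was 0.37 without HoipA-KO CD replicate 1 and 1.28 without WT CD replicate 1.

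The same question was asked on HFD, where the paper reports less weight gain in HoipA-KO than in control mice. Genotype and weight gain cannot be told apart there. The paper also reports reduced WAT mass in HoipA-KO mice on CD, so genotype and fat mass cannot be told apart on either diet. Again none of the 8 genes was called (edgeR quasi-likelihood, Benjamini-Hochberg), against 11.8% of all genes tested. At an unadjusted p under 0.05, 2 of the 8 passed beside 31.5% of all genes, and DESeq2's Wald test called 1, Wt1, beside 26%. Msln had a log2 fold change of -1.18 (SE 0.47) with an adjusted p of 0.118, and Wt1 one of 0.82 (SE 0.29) with an adjusted p of 0.0901 (edgeR quasi-likelihood, Benjamini-Hochberg). The 3 HoipA-KO libraries lay above the 3 WT libraries for Wt1 alone of the 8, as they did for 20.6% of all genes tested. Without WT HFD replicate 3, the lowest library of its group for Msln, the value for Msln was -1.55 (adjusted p = 0.0252, edgeR quasi-likelihood, Benjamini-Hochberg). The estimates of Upk3b (-0.21 (SE 0.59)), Lrrn4 (-0.26 (SE 0.65)) and Gpm6a (-0.73 (SE 0.59)) were below 0, and those of Krt19 (1.42 (SE 0.76)), Krt8 (1.93 (SE 1.25)) and Krt18 (1.88 (SE 1.32)) above it. The median of the 8 was 0.30 beside 0.06 for all genes, and it rested on single libraries. It was -0.0010 without WT HFD replicate 3, 0.030 without HoipA-KO HFD replicate 1, 0.091 without HoipA-KO HFD replicate 2, 0.48 without HoipA-KO HFD replicate 3 and 0.62 without WT HFD replicate 2.

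**Figure D3:**
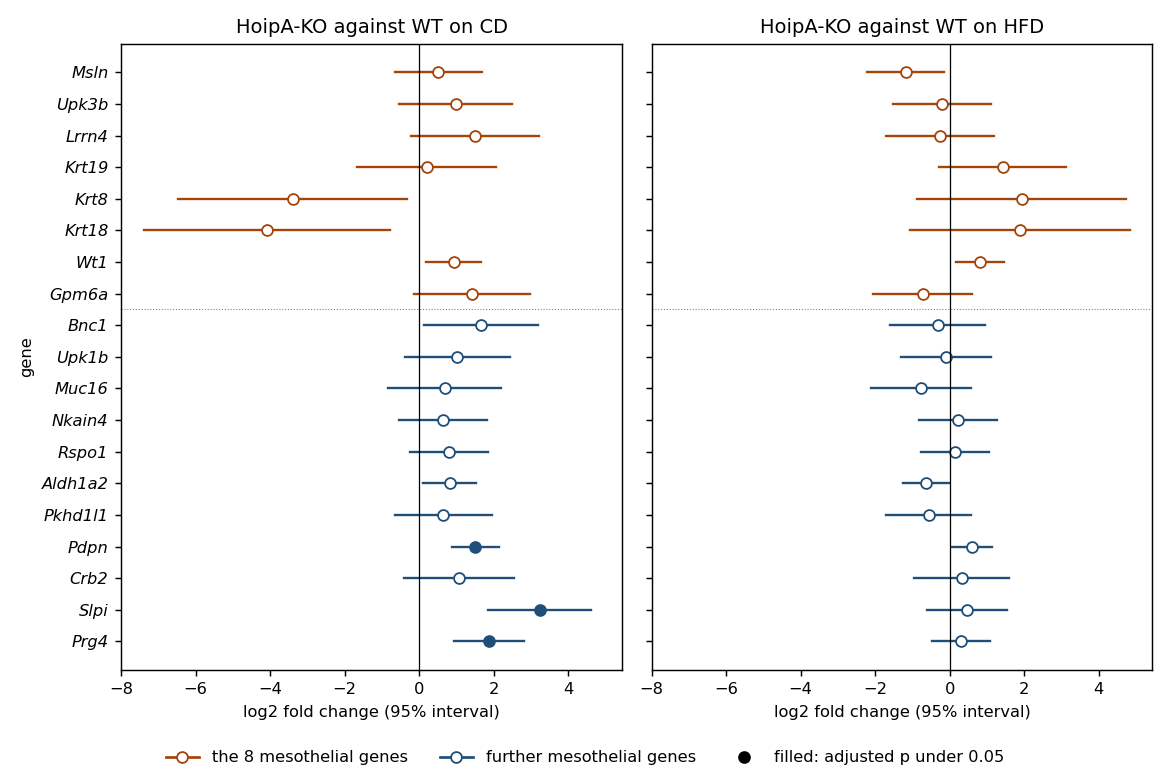
Log2 fold change of HoipA-KO against WT on CD and on HFD for the 8 genes and the 11 tested genes of a wider mesothelial list, with 95% intervals from the edgeR fit of 11 libraries; filled points passed an adjusted p of 0.05. On CD Pdpn, Slpi and Prg4 are filled, Slpi furthest right at 3.23, and none of the 8 genes is filled on either diet.

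Wt1 was the member with a similar estimate on both diets, and the genotype difference averaged over the diets was computed after these values were seen. It was 0.87 on the log2 scale (SE 0.22, 95% interval 0.38 to 1.36, adjusted p = 0.0104, edgeR quasi-likelihood, Benjamini-Hochberg), where 43.1% of all genes tested were called. The value passed without both libraries rich in Crisp1 as well (0.70, adjusted p = 0.0459) and in each of 11 fits that left out 1 library, but with WT CD replicate 3 added it was 0.29 (adjusted p = 0.596, all by edgeR quasi-likelihood, Benjamini-Hochberg). None of the other 7 genes was called on this average in the 11 libraries.

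HFD against CD in WT mice asks about the response to diet with HOIP intact. None of the 8 genes was called (edgeR quasi-likelihood, Benjamini-Hochberg), against 14.8% of all genes, while 2 passed an unadjusted p under 0.05, beside 32.1% of all genes, and DESeq2's Wald test called 2, Krt8 and Krt18, beside 25%. The log2 fold changes of Msln (1.12 (SE 0.53)), Gpm6a (1.37 (SE 0.70)), Lrrn4 (0.96 (SE 0.75)) and Upk3b (0.59 (SE 0.67)) were above 0 with adjusted p-values of 0.1797, 0.204, 0.414 and 0.583 (edgeR quasi-likelihood, Benjamini-Hochberg). Wt1 (0.15 (SE 0.32)) and Krt19 (-0.50 (SE 0.83)) had small estimates. Krt8 (-4.65 (SE 1.45)) and Krt18 (-5.08 (SE 1.54)) again rested on WT CD replicate 2, with 0.70 and 0.71 without both libraries rich in Crisp1. Both passed the threshold without WT CD replicate 1 (-5.62 and -6.06, with replicate 2 as the sole WT CD library) or HoipA-KO HFD replicate 1 (-4.81 and -5.24).

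In HoipA-KO mice HFD was compared with CD in the same way. No gene of the 8 was called and none of all genes tested was (0%, edgeR quasi-likelihood, Benjamini-Hochberg), with 0 of the 8 and 415 of all genes (2.25%) at an unadjusted p under 0.05. DESeq2's Wald test called 0 of the 8 and 7 of all genes (0.0385%) at an adjusted p under 0.05. Estimates were -0.57 (SE 0.46) for Msln, -0.59 (SE 0.59) for Upk3b, -0.80 (SE 0.65) for Lrrn4, -0.76 (SE 0.59) for Gpm6a and 0.04 (SE 0.29) for Wt1. Those of the keratins were 0.72 (SE 0.75) for Krt19, 0.67 (SE 1.21) for Krt8 and 0.88 (SE 1.27) for Krt18, and without both libraries rich in Crisp1 they were -0.58, -0.66 and -0.49. The interaction, the genotype difference on HFD minus that on CD, was called for none of the 8 against 3.91% of all genes (edgeR quasi-likelihood, Benjamini-Hochberg), while 4 passed an unadjusted p under 0.05, beside 22.9% of all genes, and DESeq2's Wald test called 2, Krt8 and Krt18, beside 13.9%. It was -1.696 (SE 0.70) for Msln, -1.18 (SE 0.89) for Upk3b, -1.76 (SE 0.99) for Lrrn4, -2.13 (SE 0.91) for Gpm6a and -0.11 (SE 0.43) for Wt1 on the log2 scale. The keratin values of 5.33 for Krt8 and 5.97 for Krt18 were -1.36 and -1.21 without both libraries rich in Crisp1, and without WT CD replicate 1, with replicate 2 alone in its group, they were 6.32 and 6.96 and passed the threshold. In these contrasts the 3 HoipA-KO CD libraries and both WT CD libraries are shared with the comparisons above.

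A wider list of 12 mesothelial genes was read for comparison, and 11 of them were tested. This list too was chosen with earlier results of these data known. Calb2, which encodes calretinin, had at most 1.47 CPM and failed the filter. On CD 3 of the 11 rose in HoipA-KO, beside 18.9% of all genes, and all 11 estimates were above 0 with a median of 1.03. With all 12 libraries 9 were above 0 and the median was 0.73, and without WT CD replicate 1, WT CD replicate 2 or HoipA-KO CD replicate 1 it was 1.79, 0.59 or 0.64. Slpi, an inhibitor of serine proteases, had 18.95, 8.29 and 23.2 CPM in WT CD, 60.4, 80.4 and 26.8 CPM in WT HFD, 195, 65.9 and 115 CPM in HoipA-KO CD and 71.4, 94.1 and 62.8 CPM in HoipA-KO HFD. All 3 HoipA-KO CD libraries lay above all 3 WT CD libraries, and the log2 fold change was 3.23 (SE 0.61) with an adjusted p of 0.00352 (edgeR quasi-likelihood, Benjamini-Hochberg). Pdpn, which encodes podoplanin, a surface glycoprotein of mesothelium and lymphatic vessels, had 18.4, 21.8 and 19.9 CPM in WT CD, 28.4, 38.9 and 27.7 CPM in WT HFD, 50.5, 68.001 and 47.6 CPM in HoipA-KO CD and 50.6, 58.9 and 33.6 CPM in HoipA-KO HFD. It rose by 1.4997 (SE 0.28, adjusted p = 0.00333, edgeR quasi-likelihood, Benjamini-Hochberg) with no overlap.

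Prg4, which encodes the lubricant lubricin, had 4.702, 2.83 and 2.98 CPM in WT CD, 11.6, 17.05 and 10.5 CPM in WT HFD, 17.99, 9.902 and 12.4 CPM in HoipA-KO CD and 11.4, 23.3 and 12.7 CPM in HoipA-KO HFD. On CD its groups did not overlap and it rose by 1.87 (SE 0.42, adjusted p = 0.00759, edgeR quasi-likelihood, Benjamini-Hochberg). Slpi, Pdpn and Prg4 passed with all 12 libraries and without both libraries rich in Crisp1 too. The 8 genes that did not pass were Bnc1 (1.66), Upk1b (1.03), Pkhd1l1 (0.64), Aldh1a2 (0.82), Muc16 (0.69), Rspo1 (0.79), Nkain4 (0.64) and Crb2 (1.07). On HFD none of the 11 was called in HoipA-KO against WT (2 at an unadjusted p under 0.05, beside 31.5% of all genes), with a median of 0.14 that ran from -0.20 without WT HFD replicate 3 to 0.42 without WT HFD replicate 2.

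In WT mice on HFD 2 of the 11 genes rose against CD, Slpi by 2.04 and Prg4 by 1.80, beside 9.35% of all genes, and without WT CD replicate 2 the values were 1.57 and 1.48 and neither passed. Without WT HFD replicate 2 they were 1.69 and 1.56 and neither passed. For Slpi 5 further libraries, each left out alone, also ended the call (1.97 to 2.04). The interaction was called for none of the 11 (edgeR quasi-likelihood, Benjamini-Hochberg), 5 passed an unadjusted p under 0.05, beside 22.9% of all genes, and DESeq2's Wald test called 3, beside 13.9%. The genes that rose on CD are not restricted to mesothelium: macrophages and fibroblasts also make Slpi, Pdpn or Prg4. Summed macrophage genes had 223 to 398 CPM in WT CD and 7691 to 9077 CPM in HoipA-KO CD, and all 8 of them rose, while adipocyte genes had 13066 to 49290 CPM in WT and 5484 to 9204 CPM in HoipA-KO over both diets. Progenitor genes had 722 to 2432 CPM in WT and 1915 to 2930 in HoipA-KO, and endothelial genes 398 to 1227 and 395 to 753. Their part in the levels of these genes was not tested.

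Ratios of 2 members within a library do not depend on the scaling, and all 28 pairs were computed after the levels were seen, so that they are given as a description without a test. Over all 12 libraries 2 pairs had no overlap between the genotypes, both with Msln. Counts of Upk3b over Msln were 3.12, 2.597 and 2.77 in WT CD, 2.21, 2.05 and 1.61 in WT HFD, 4.87, 3.45 and 3.49 in HoipA-KO CD and 3.66, 4.62 and 3.66 in HoipA-KO HFD. The highest WT value was 3.12 and the lowest HoipA-KO value 3.45. Counts of Msln over Lrrn4 were 1.67, 1.94 and 1.82 in WT CD, 1.99, 1.78 and 2.78 in WT HFD, 0.766, 0.875 and 1.13 in HoipA-KO CD and 1.48, 0.722 and 1.32 in HoipA-KO HFD. The lowest WT value was 1.67 and the highest HoipA-KO value 1.48. Of the 18426 other genes tested, 1.78% had a ratio to Msln that separated the genotypes over the 12 libraries, and 1.07% with HoipA-KO higher, as Upk3b and Lrrn4 were. For ratios to Upk3b the share in either direction was 2.72%, and for ratios to Wt1 it was 5.41%. Both pairs share Msln, and Upk3b and Lrrn4 varied together (r = 0.96), so the 2 pairs are not separate observations. WT CD replicates 2 and 3 lay within the WT range of both ratios.

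**Figure D4:**
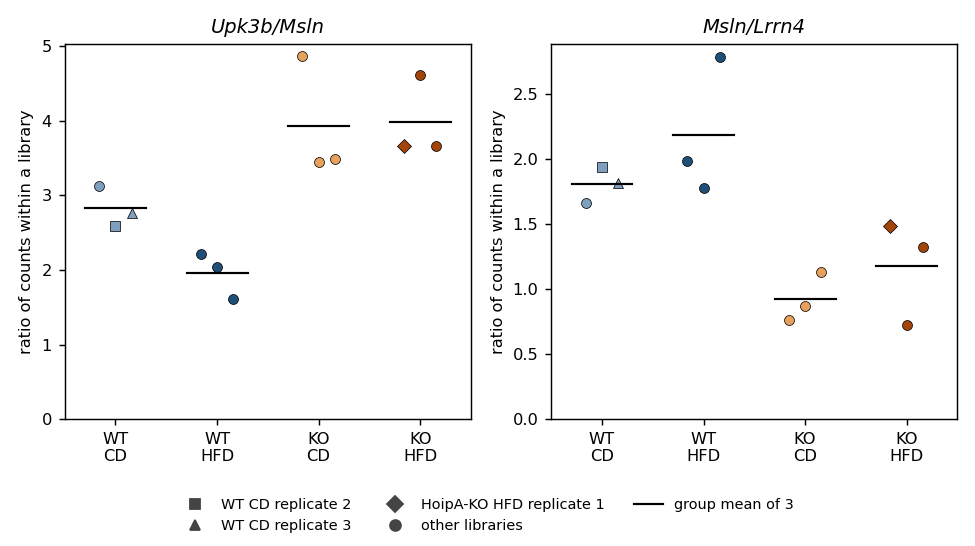
Ratio of counts of Upk3b to Msln and of Msln to Lrrn4 in each library by group, 1 point a library and a bar at the mean. Upk3b over Msln is 1.61 to 3.12 in the 6 WT and 3.45 to 4.87 in the 6 HoipA-KO libraries.

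Across the 12 libraries the membrane genes varied together. Pearson's r of log2(CPM + 1) was 0.96 for Upk3b and Lrrn4, 0.90 for Lrrn4 and Gpm6a, 0.88 for Upk3b and Gpm6a, 0.86 for Msln and Gpm6a and 0.80 for Msln and Upk3b. Krt8 and Krt18 had r = 0.99 and a ratio of 1.05 to 1.99 in every library. Between Krt8 and the 4 membrane genes r was -0.34 to -0.18. Over the 9 libraries without WT CD replicates 2 and 3 and HoipA-KO HFD replicate 1, Krt8 had r = 0.46 with Upk3b and 0.15 with Msln, Krt19 had 0.86 with Upk3b, and Wt1 had 0.69 with Upk3b and 0.07 with Msln. These are descriptions, since libraries share groups and tissue composition.

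**Figure D5:**
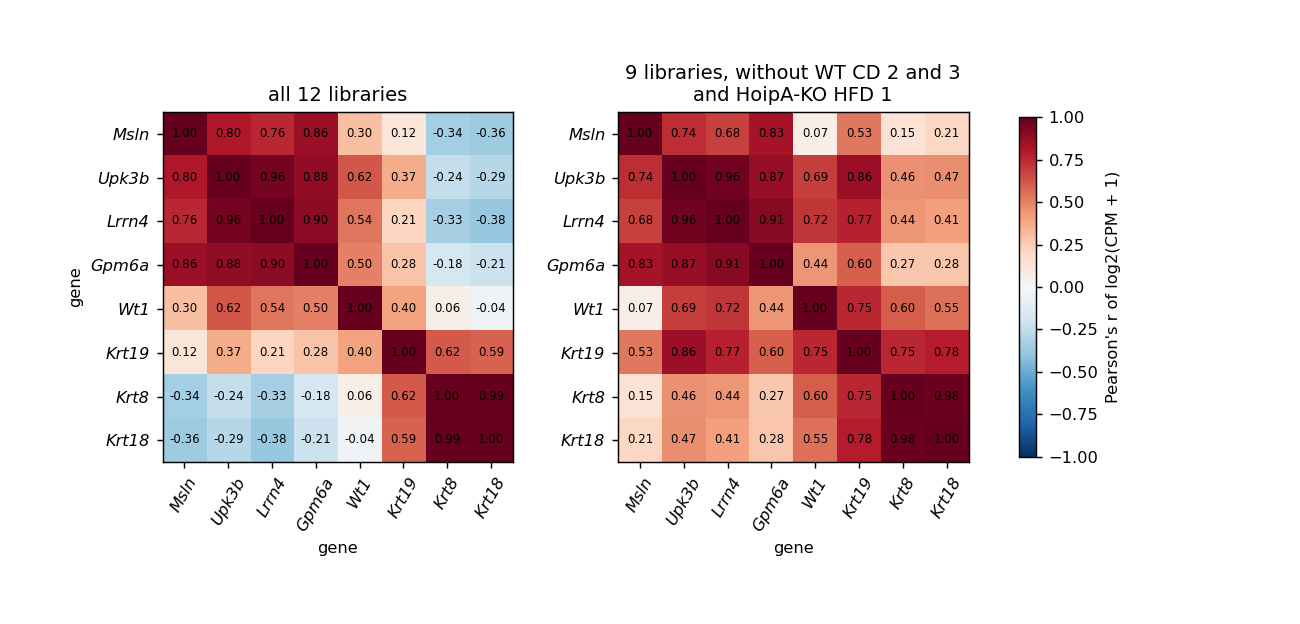
Pearson's r of log2(CPM + 1) between the 8 genes over all 12 libraries and over 9 libraries, without WT CD replicates 2 and 3 and HoipA-KO HFD replicate 1. Krt8 and Krt18 form a block apart from Msln, Upk3b, Lrrn4 and Gpm6a over 12 libraries (r of Krt8 with them -0.34 to -0.18).

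For each member the 3 genes most like it, by r of log2(CPM + 1) over 12 libraries, were taken from 15751 genes with a mean of at least 1 CPM. They were Adra1b (0.925), Pkhd1l1 (0.894) and Nxph1 (0.884) for Msln, Tmem151a (0.947), Pkhd1l1 (0.946) and Bnc1 (0.942) for Upk3b, Wnt2b (0.972), Bnc1 (0.962) and Pkhd1l1 (0.940) for Lrrn4 and Bnc1 (0.933), Pkhd1l1 (0.898) and A730046J19Rik (0.887) for Gpm6a. Bnc1 and Pkhd1l1, which are on the wider mesothelial list, appeared for 3 and 4 of these genes. For the keratins they were Kcnk1 (0.986), Rnf43 (0.986) and Epcam (0.980) for Krt8, Cldn3 (0.987), Kcnk1 (0.985) and Rnf43 (0.982) for Krt18 and Kcnmb1 (0.914), Col4a6 (0.912) and Arl4d (0.900) for Krt19, where Epcam and Cldn3 are genes of other simple epithelia. For Wt1 they were Capn6 (0.927), Zfp951 (0.907) and Gnl1 (0.902).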

How the data were processed

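GWAT RNA of 12 pools was sequenced with a stranded poly-A kit. Trim Galore 0.6.7, STAR 2.7.10a and Salmon 1.5.2 are named in the submitters' processing notes with the build GRCm38, and the authors deposited estimated counts per gene for 55281 genes, without normalization, for all 12 libraries. The tables of the authors' DESeq2 comparisons hold log2 fold changes, p-values, scores, mean signal and CPM that the authors deposited for 11 libraries, and were not used. All columns of the count table were matched to samples.

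Counts were rounded, filtered with filterByExpr (18427 genes), scaled with TMM factors, and all 4 groups entered a single edgeR 4.0.16 model in R 4.3.3 (limma 3.58.1). WT CD replicate 3 was left out of this fit. Contrasts were tested with the quasi-likelihood test and Benjamini-Hochberg adjustment over all genes tested at 0.05, log2 fold changes use a prior count of 0.125, and a library's lower limit was set at 3 counts. Alternatives were library size only or DESeq2 size factors, no filter or at least 10 counts in every library, protein-coding genes, DESeq2 1.42.0, a replicate block, only the groups compared, all 12 libraries, and each library left out. Leaving out both libraries rich in Crisp1, the average over diets and the ratios were added after the values were seen. The scripts were tested on simulated data. The members and lists were chosen with earlier results of these data known. Named were all 8 members, all 12 genes of the wider mesothelial list, leading members of other lists, the 3 genes most like each member, Rnf31, and genes that overlap a member or were named after their values were seen. Positions and exon lengths are from GENCODE vM21 on GRCm38.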

Additional observations from a re-analysis of the deposited data

Results flagged for a closer look

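In WT CD replicate 3, the library left out of the fits, 3 mesothelial genes were above the other 11 libraries. Wt1 had 34.7 CPM against 6.08 to 19.5, Muc16, a mucin of mesothelium and other epithelia, had 16.9 CPM against 1.69 to 8.92, and Aldh1a2, an enzyme of retinoic acid synthesis, had 62.8 CPM against 8.73 to 20.7. The same library held 134 CPM of Sertoli cell genes against 4.02 to 17.2 in the others, and their part in these values was not tested.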

How the results depend on the processing

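Of the 8 genes, 0 were called in HoipA-KO against WT on CD, and this count was 1 with library size only, 1 without a filter, 2 with at least 10 counts in every library, 3 with DESeq2, 1 among protein-coding genes and 0 to 3 with 1 library left out. On HFD it was 1 with DESeq2 and 0 to 1 with 1 library left out. For HFD against CD in WT it was 2 without a filter, 2 with at least 10 counts, 2 with DESeq2, 1 among protein-coding genes and 0 to 2 with 1 library left out, and for the interaction 2 with DESeq2 and 0 to 2. In the wider list, with 3 called on CD, leaving out 1 library gave 3 to 5, on HFD 0 to 1 and for the interaction 0 to 1, with 3 by DESeq2. Its 2 calls for HFD in WT became 1 with all 12 libraries, 0 with only the groups compared, 0 without both libraries rich in Crisp1 and 0 to 3 with 1 library left out.

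The share called among all genes also depended on the setting, so the counts above do not single out mesothelial genes. With all 12 libraries it was 34.7% for HoipA-KO against WT on CD, beside 37.7% in the main fit (edgeR quasi-likelihood, Benjamini-Hochberg). The same shares were 2.78% beside 11.8% on HFD, 15% beside 14.8% for HFD in WT and 2.78% beside 3.91% for the interaction. With DESeq2's Wald test the shares were 44.9% on CD, 26% on HFD, 25% for HFD in WT and 13.9% for the interaction. For the remaining settings the share of all genes is not given, so their counts do not show a change particular to mesothelial genes. Adding WT CD replicate 3 turned Wt1 to -0.22 in HoipA-KO on CD, -0.98 for HFD in WT and 1.02 for the interaction, and on CD Muc16 to -0.49 and Aldh1a2 to -0.75. Leaving out both libraries rich in Crisp1 gave -0.0021 for Msln, 1.96 for Krt8 and 1.71 for Krt18 on CD. For HFD in WT it gave -0.0016 for Upk3b, 0.70 for Krt8, 0.71 for Krt18 and -0.21 for Wt1. For HFD in HoipA-KO it gave -0.58 for Krt19, -0.66 for Krt8 and -0.49 for Krt18, and for the interaction -0.43, -1.36 and -1.21 for these genes and 0.28 for Wt1. Averaged over the diets, Krt8 was 1.28 and Krt18 1.11. Apart from the libraries left out or added, the cause was not tested.

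With 1 library left out, from the 11 or of the 12, log2 fold changes that changed sign on CD ran from -5.08 to 1.75 for Krt18, -4.38 to 2.00 for Krt8, -0.19 to 0.58 for Krt19, -0.16 to 1.22 for Msln, -0.62 to 1.34 for Wt1, -0.96 to 1.87 for Muc16 and -1.15 to 0.82 for Aldh1a2. On HFD Lrrn4 ran from -0.85 to 0.25 and Upk3b from -0.62 to 0.16. For HFD in WT the ranges were -6.06 to 0.75 for Krt18, -5.62 to 0.73 for Krt8, -1.37 to 0.58 for Wt1 and -0.037 to 1.51 for Upk3b. For HFD in HoipA-KO they were -0.49 to 1.381 for Krt18, -0.66 to 1.15 for Krt8, -0.58 to 1.11 for Krt19 and -0.12 to 0.24 for Wt1. For the interaction they were -0.065 to 6.32 for Krt8 and -0.54 to 1.42 for Wt1, and for the average over diets -1.87 to 1.81 for Krt18, -1.47 to 1.97 for Krt8 and -0.57 to 0.012 for Msln.

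Whether replicate numbers pair the libraries could not be decided. Same-numbered libraries correlated at -0.48 to 0.37 in their deviations from group means, and 5 of 15 pairs were over 0.1. Libraries with different numbers correlated at -0.42 to 0.48, and 10 of 30 pairs were over 0.1. In groups of 2 or 3 libraries such deviations depend on each other, so they cannot exclude a pairing. With the replicate block 2 of the 8 genes were called on CD (Wt1 and Gpm6a), 1 for HFD in WT (Gpm6a), and in the wider list 5 on CD, 1 on HFD and 1 for the interaction. The share of all genes called with the block is not given, so these counts do not show a change particular to mesothelial genes.

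The groups hold 2 or 3 pools each, and pools varied with a common biological coefficient of variation of 0.394 over all genes tested. The size of difference that was callable also depended on the gene. For the average over diets the SE was 0.22 for Wt1 and 0.95 for Krt18. At 3 counts, taken as the lower limit of a library, all 8 genes were above it in every library, so that depth did not limit their detection.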
